A study of Mus musculus with 10 samples.

Results

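The 34 genes described here encode proteins of skeletal muscle fibres: the contractile filaments, the Z-disc, calcium handling and muscle metabolism. They were taken by name from the 37417 genes of the count table, matched through their Ensembl mouse identifiers, and all 34 were found. Of these, 12 are genes of fast fibres, 6 are genes of slow fibres and 16 are used by both. RNA-seq was performed on 10 tumors that had formed under the skin (s.c.) from Panc02, a pancreatic cancer line of the mouse, and the comparison of interest for these genes was fast against slow within each tumor. Each tumor came from a wild-type C57BL/6J mouse, with an age label of 12 weeks, and was collected 16 days after the cells were injected into the flank. The injected cells held a guide targeting the cytidine deaminase gene Cda in 5 tumors (sgCda) and a nontargeting guide in the other 5 (sgNT). Per the study's methods, cells of both groups had been transduced with a Cas9 that doxycycline switches on, selected, and treated with doxycycline in culture, so the host cells of a tumor were not edited. Clones were also isolated, and the methods give a pool of clones as used only for survival analysis. They do not otherwise name the cells that these tumors grew from. Replicates are separate tumors, named here by guide and replicate number, for example sgCda 3.

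Skeletal muscle fibres contract when myosin heads of the thick filament pull on actin of the thin filament, and the troponin complex lets this happen once calcium is released from the sarcoplasmic reticulum. Fast and slow fibres build the same machine from different paralogs of myosin, myosin light chain and troponin, and fast fibres add calcium buffers and pumps of their own. Slow fibres rely more on oxidative metabolism, and limb and trunk muscles of the mouse are mostly fast.

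The 3 members with the highest mean level and an entry in the promoter table were Eno3, Acta1 and Pvalb, and their promoters are shown because the results below turn on these genes. RefSeq promoters (GRCm38.p6) run from 250 bases before to 50 bases after the start, and 27 of the 34 members had an entry. Capitals mark matches on either strand to TATAAA, to the E-box CANNTG, to the CArG box or to the MEF2 box, and none of these matches overlapped another in the sequences shown.
Eno3, chr11:70656926-70657225, plus strand: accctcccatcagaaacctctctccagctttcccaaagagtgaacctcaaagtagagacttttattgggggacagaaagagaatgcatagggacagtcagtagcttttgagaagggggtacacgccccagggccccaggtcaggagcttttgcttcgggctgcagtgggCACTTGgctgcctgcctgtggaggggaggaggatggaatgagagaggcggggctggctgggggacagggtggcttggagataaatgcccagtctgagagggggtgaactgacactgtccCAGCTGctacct
Acta1, chr8:123894726-123895025, minus strand: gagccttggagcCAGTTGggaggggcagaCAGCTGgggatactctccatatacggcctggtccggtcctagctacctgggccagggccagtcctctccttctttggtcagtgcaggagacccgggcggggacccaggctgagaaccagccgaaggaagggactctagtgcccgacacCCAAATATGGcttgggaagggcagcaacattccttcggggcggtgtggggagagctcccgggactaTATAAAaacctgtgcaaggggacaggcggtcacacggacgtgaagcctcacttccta
Pvalb, chr15:78206351-78206650, minus strand: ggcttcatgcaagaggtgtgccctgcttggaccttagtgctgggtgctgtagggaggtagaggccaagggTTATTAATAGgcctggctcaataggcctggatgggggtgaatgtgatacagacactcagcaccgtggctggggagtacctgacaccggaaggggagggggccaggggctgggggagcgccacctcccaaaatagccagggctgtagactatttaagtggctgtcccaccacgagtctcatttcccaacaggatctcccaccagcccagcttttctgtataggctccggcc
Pvalb, the other start, chr15:78204188-78204487, minus strand: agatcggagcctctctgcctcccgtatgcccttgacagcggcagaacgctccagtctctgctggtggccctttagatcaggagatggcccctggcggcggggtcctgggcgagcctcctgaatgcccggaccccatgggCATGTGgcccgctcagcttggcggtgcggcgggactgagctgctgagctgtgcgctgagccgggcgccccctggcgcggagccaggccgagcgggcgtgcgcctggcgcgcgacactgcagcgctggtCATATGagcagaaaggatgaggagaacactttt

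The Acta1 promoter held a TATAAA, 2 E-boxes and a CArG box. The upstream Pvalb promoter held a MEF2 box, and the promoter of its other start 2 E-boxes. The Eno3 promoter held 2 E-boxes and no match to the other letters searched. TATAAA was present in 8 of the 27 members (29.6%), among them Myh1, Myh2 and Myh4, against 15.7% of all 27025 genes of the table. At least 2 E-boxes were present in 17 of the 27 (63.0%), against 43.0% of all genes. The CArG box was present in 4 (Acta1, Myh4, Myl3 and Ldb3; 14.8%), against 1.81%, and the MEF2 box in 5 (Myh1, Myh4, Pvalb, Ttn and Xirp2; 18.5%), against 3.70%. A gene with more than 1 start counted if any of its promoters held the match. These are letter matches in a short window, given as a description.

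The deposited values are raw read counts per gene. Levels are given as CPM, counts per 1000000 of the TMM-scaled library (TMM, trimmed mean of M values), and as CPM per kilobase of exon (CPM/kb) where genes are compared with each other. Assigned counts ran from 28051907 to 39484964 per tumor, so that 3 counts equal 0.0754 to 0.106 CPM. Cda was at 10.1, 11.7, 12.8, 14.7 and 11.1 CPM in sgNT 1 to 5, and at 8.34, 8.43, 12.1, 7.47 and 12.5 CPM in sgCda 1 to 5. The groups overlapped (log2 fold change −0.30, SE 0.17, edgeR adjusted p = 0.9996), and a count over the whole gene does not show editing at the guide's site. Of 15299 genes tested, 0 (0%) passed an adjusted p of 0.05 by edgeR, DESeq2 or limma-voom, while 236 (1.54%) were higher and 146 (0.954%) lower in sgCda at an unadjusted edgeR p under 0.05. Tumor sgCda 4 stood apart with 18.4% of reads outside annotated genes (10.3 to 14.9% in the others) and 5.82% mitochondrial counts (3.47 to 3.81%).

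The 34 genes took between 0.0171 and 0.347% of the assigned counts. The share was 0.0183, 0.0171, 0.0711, 0.0971 and 0.0216% in sgNT 1 to 5. In sgCda 1 to 5 it was 0.0999, 0.0643, 0.347, 0.0201 and 0.0218%. Thus sgCda 3 was highest, followed by sgCda 1, sgNT 4, sgNT 3 and sgCda 2, and the other 5 tumors were low. The mean was 0.0450 ± 0.0369% in sgNT and 0.111 ± 0.136% in sgCda (SD, n = 5 each), with overlapping ranges, and without sgCda 3 the sgCda mean was 0.0515%. In a bulk tumor, fewer muscle fibres in the piece and less RNA per fibre cannot be told apart.

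Much of the share in the low tumors was Eno3 alone. Eno3 (chr11:70657202-70662513 on GRCm38, plus strand) encodes the muscle enolase of glycolysis. Its level was 151, 151, 179, 200.5 and 177 CPM in sgNT 1 to 5. In sgCda 1 to 5 it was 180.1, 173, 272, 126 and 202 CPM. Its highest tumor was only 2.16 times its lowest, and it made up 82.7, 88.9 and 82.5% of member counts in sgNT 1, 2 and 5, and 63.1 and 91.9% in sgCda 4 and 5. Without Eno3, a setting added after the data were seen, the members took 31.7, 18.9, 537, 773 and 37.8 counts per 1000000 assigned in sgNT 1 to 5. The same sum was 818, 472, 3191, 74.0 and 17.6 in sgCda 1 to 5, which separates the 5 high from the 5 low tumors more widely than the sum with Eno3.

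**Figure D1:**
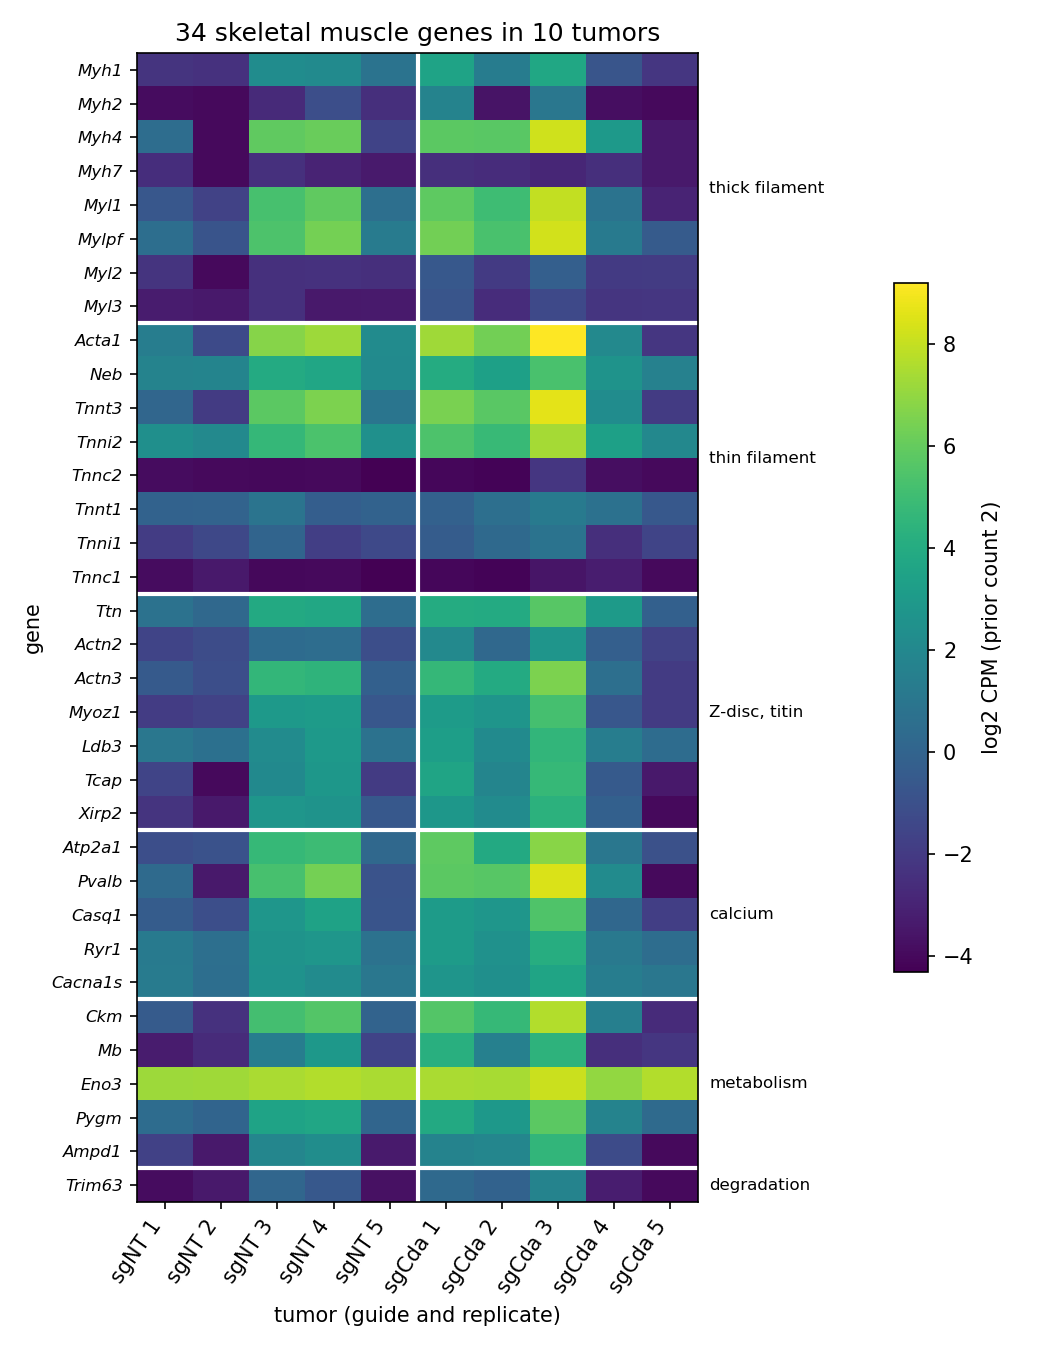
Level of each of the 34 genes (rows, grouped by role) in each of the 10 tumors (columns) as log2 CPM with a prior count of 2, brighter being higher. Most rows are bright in the same 5 tumors (sgNT 3, sgNT 4, sgCda 1, sgCda 2 and sgCda 3) and brightest in sgCda 3, while Eno3 is bright in every tumor and Tnnc1, Tnnc2 and Myh7 are dark in every tumor.

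The members shared an order of tumors. Of the 29 members with a mean of at least 10 counts, 28 had their highest CPM in sgCda 3, and 25 had the same 5 highest tumors, namely sgCda 1, 2 and 3 and sgNT 3 and 4. The lowest tumor was sgCda 5 for 16, sgNT 2 for 7, sgNT 1 for 4 and sgCda 4 for 2. The level in the highest tumor was 1.17 to 4.88 times that of the next one (median 2.92), and both groups hold high and low tumors, so that all 29 overlapped between groups. Of the 34, 11 were at 0 counts in at least 1 tumor and 6 were above 40 counts in every tumor.

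Of the thick filament genes, the fast myosin light chains and the fast heavy chain Myh4 carried most counts. Mylpf (chr7:127208890-127214298) encodes the fast regulatory light chain. It was at 1.42, 0.505, 42.0, 82.2 and 2.46 CPM in sgNT 1 to 5, and at 79.9, 40.1, 305, 2.34 and 0.665 CPM in sgCda 1 to 5. Myl1, the fast essential light chain, was at 0.573, 0.253, 37.6, 58.5 and 1.46 CPM in sgNT, and at 56.7, 32.0, 246, 1.70 and 0.0633 CPM in sgCda. Both genes were high in the same 5 tumors, and the lowest of these lay far above the highest of the other 5. Their slow partners were close to the detection limit. Myl2, the slow regulatory light chain, had 4, 0, 4, 4 and 5 counts in sgNT 1 to 5 and 21, 7, 29, 5 and 6 in sgCda 1 to 5. Myl3, the slow essential light chain, had 1, 1, 4, 1 and 2 counts in sgNT and 18, 4, 12, 4 and 5 in sgCda. For both slow light chains the highest tumors were sgCda 1 and sgCda 3. The levels of Myl2 in CPM did not overlap between groups, as was the case for 0.601% of all genes tested, but Myl2 was below the filter on low counts. Tested with a filter of 1 count in any tumor, Myl2 had a log2 fold change of 1.91 and an edgeR adjusted p of 0.862.

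Among the myosin heavy chains, which set the speed of a fibre, Myh4 (type IIb, the fastest; chr11:67238029-67260446) was at 1.38, 0, 59.9, 68.6 and 0.276 CPM in sgNT 1 to 5 and at 54.5, 52.4, 301, 7.90 and 0.0316 CPM in sgCda 1 to 5. Myh1 (type IIx) was at 0.135, 0.126, 4.65, 4.33 and 1.73 CPM in sgNT and at 11.4, 2.50, 13.3, 0.531 and 0.158 CPM in sgCda. Myh1 followed the other members, except that sgCda 1 came close to sgCda 3 and that sgNT 5 stood well above the other low tumors. Myh2 (type IIa) had 0, 0, 3, 13 and 5 counts in sgNT and 111, 1, 71, 0 and 0 in sgCda, and it was the only one of the 29 with its highest tumor in sgCda 1. Myh7, the slow heavy chain, had 3, 0, 4, 2 and 2 counts in sgNT and 4, 4, 3, 3 and 1 in sgCda, at the detection limit everywhere. These paralogs are similar in sequence. Of their 50-base transcript windows, 69.5% (Myh1), 75.4% (Myh2), 81.1% (Myh4) and 80.0% (Myh7) occurred in no other gene, so the split of reads between them is uncertain.

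Per kilobase of exon, Myh4 was the main heavy chain in the tumors with many myosin reads. Its share of the 4 heavy chains was 92.9% in sgNT 3 (2090 heavy chain counts) and 93.9% in sgNT 4 (2338 counts). It was 95.5% in both sgCda 2 (2024 counts) and sgCda 3 (11322 counts). In sgCda 1 (2372 counts) Myh4 was at 80.0%, Myh1 at 15.8% and Myh2 at 4.01%, so that this tumor held more of the IIx and IIa chains at a similar depth. As shares of counts, Myh1 was at 16.4% in sgCda 1 (95% Wilson interval 15.0 to 18.0%) and at 4.20 to 7.18% in the other 4 of these tumors, whose intervals ended at 8.36% or lower. Such intervals cover counting error only. In the low tumors sgNT 1 and sgCda 4 the Myh4 share was 87.5% (48 counts) and 93.2% (241 counts). In sgNT 5 it was 13.4%, with 69 of 87 counts from Myh1. The shares in sgNT 2 and sgCda 5 rested on 4 and 7 counts.

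**Figure D2:**
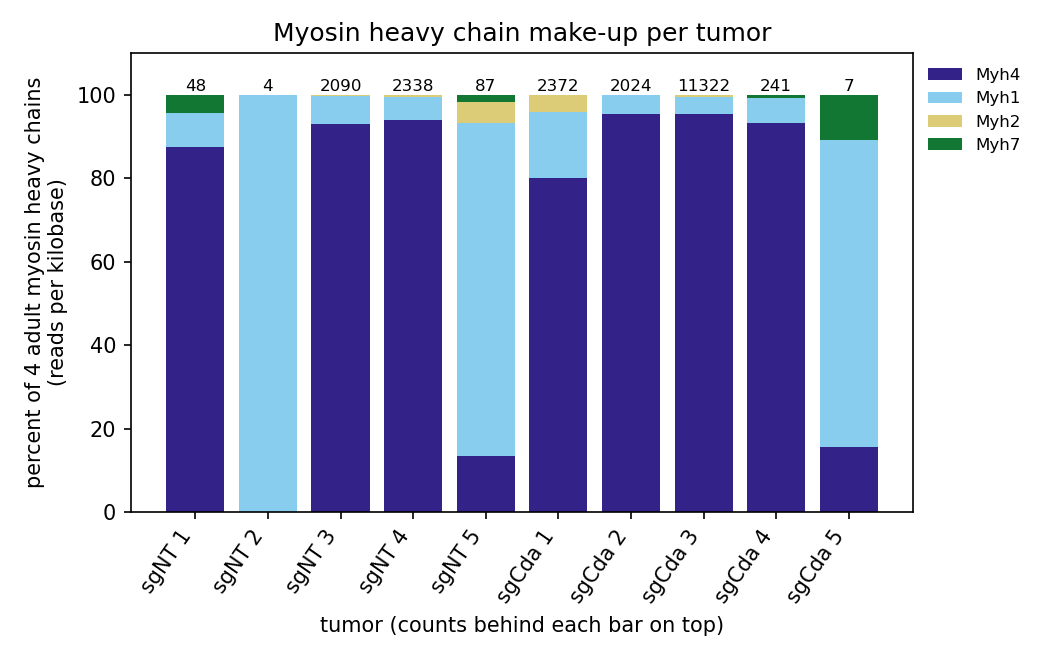
Share of each of 4 adult myosin heavy chains in their sum of reads per kilobase (bars, percent), for each tumor, with the heavy chain counts behind each bar printed above it. Myh4 fills 80.0 to 95.5% of the bar in the 5 tumors with more than 2000 counts and 13.4% in sgNT 5, where Myh1 takes 79.7%; the bars of sgNT 2 and sgCda 5 rest on 4 and 7 counts.

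Of the thin filament genes, Acta1 (chr8:123891769-123894751), the actin of adult skeletal muscle, was the highest member after Eno3. It was at 2.60, 0.347, 107, 149 and 4.55 CPM in sgNT 1 to 5. In sgCda 1 to 5 it was at 152, 80.9, 584, 4.00 and 0.158 CPM. The highest tumor was thus 3689 times the lowest, which had 5 counts. Neb, which encodes nebulin along the thin filament, had a mean of 11.5 CPM and ranged from 3.04 to 40.3 CPM.

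The troponin genes differed between the fast and slow sets. Tnnt3, the fast subunit that binds tropomyosin (chr7:142498836-142516009), was at 1.05, 0.190, 55.1, 92.2 and 1.86 CPM in sgNT 1 to 5 and at 89.5, 53.6, 397, 4.71 and 0.190 CPM in sgCda 1 to 5. Tnni2, the fast inhibitory subunit (chr7:142441808-142444410), was at 5.29, 3.98, 25.5, 40.9 and 5.43 CPM in sgNT and at 43.4, 27.2, 163, 10.2 and 3.86 CPM in sgCda. Both were high in the same 5 tumors, but Tnni2 did not fall below 122 counts in any tumor. Tnnt1, the slow tropomyosin-binding subunit, was at 0.877, 0.916, 1.77, 0.754 and 0.905 CPM in sgNT and at 0.875, 1.50, 2.32, 1.59 and 0.601 CPM in sgCda. Tnni1, the slow inhibitory subunit, was at 0.202, 0.316, 0.961, 0.220 and 0.352 CPM in sgNT and at 0.700, 1.20, 1.73, 0.106 and 0.285 CPM in sgCda. The range of Tnnt1 was 3.86-fold from the lowest to the highest tumor, and sgNT 4, high for all fast genes tested, was the second lowest for Tnnt1. The calcium-binding subunits gave almost no counts. Tnnc2, the fast one, had 6 counts in sgCda 3 and 0 elsewhere, and Tnnc1, the slow one, had 1 count in each of sgNT 2, sgCda 3 and sgCda 4 and 0 elsewhere. In the annotation, 592 of the 800 exonic bases of Tnnc2 (74.0%) also lie in exons of Ube2c on the opposite strand, and whether this bears on its count was not tested, since the strand setting of the counting was not given.

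Per tumor, the fast sum was above the slow sum in all 10 tumors, by very different factors. The fast sum runs over 12 genes and the slow sum over 6, so a ratio of sums does not compare single genes. Pvalb, Atp2a1, Actn3 and Myoz1 have no slow partner in the list. The ratio of summed fast to summed slow CPM/kb was 13.9, 6.99, 147, 617 and 15.8 in sgNT 1 to 5. In sgCda 1 to 5 it was 241, 149.6, 571, 20.7 and 6.94. The 5 tumors with a high member share had ratios of 147 or more, and the other 5 had ratios of 20.7 or less. Much of the fast sum in the low tumors was Tnni2, which made up 46.1, 69.3 and 37.9% of it in sgNT 1, 2 and 5 and 34.4 and 70.1% in sgCda 4 and 5, against 8.87 to 10.3% in the 5 high tumors. Without Tnni2, a setting added after the data were seen, the ratio was 7.49, 2.15, 133, 561 and 9.84 in sgNT 1 to 5 and 216, 134, 521, 13.6 and 2.07 in sgCda 1 to 5. The fast sum thus stayed above the slow sum in all 10 tumors, but it still ran over more genes. The ratios of 2.15 in sgNT 2 and 2.07 in sgCda 5 therefore do not show a typical fast gene above a typical slow gene. The fast sum moved from 3.68 to 1229.9 CPM/kb, whereas the slow sum stayed between 0.490 and 2.15 CPM/kb. On the log2 scale the ratio was 5.41 ± 2.72 in sgNT and 6.29 ± 2.63 in sgCda (SD, n = 5 each), with overlapping ranges and a difference in means below either SD. The slow sum held only 38 to 190 counts per tumor, most of them from Tnnt1 and Tnni1, and the other 4 slow genes together had 2 to 45.

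**Figure D3:**
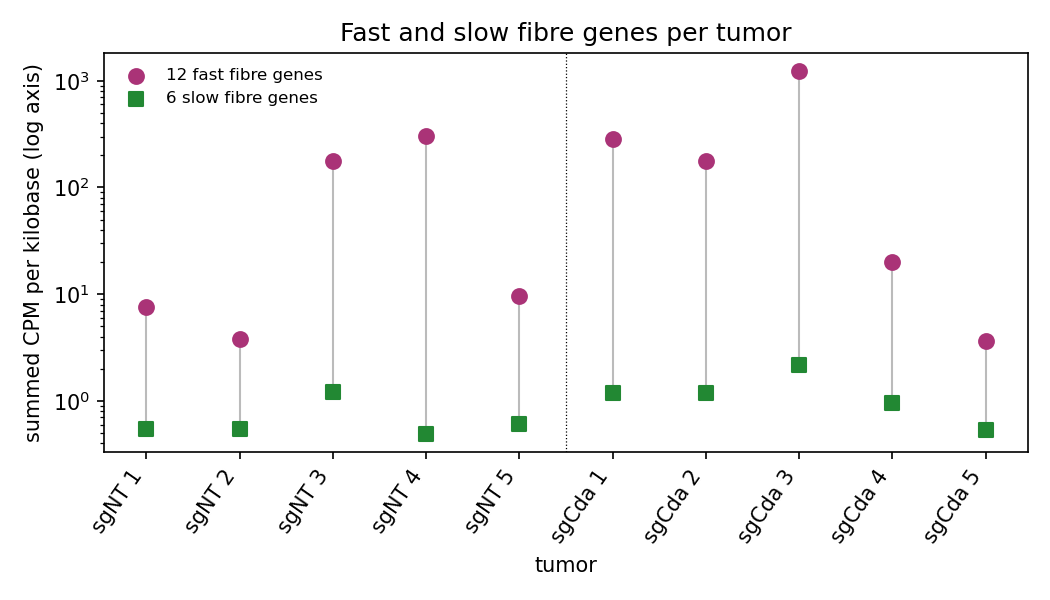
Summed CPM per kilobase of exon of the 12 fast genes (circles) and the 6 slow genes (squares) in each tumor, on a log axis, joined by a grey line. The slow sum lies between 0.490 and 2.15 in every tumor, while the fast sum runs from 3.68 in sgCda 5 to 1229.9 in sgCda 3.

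The pairs of fast and slow paralogs did not all behave alike. Tnni2 was above Tnni1 in 10 of 10 tumors, per kilobase by 30.3 (sgNT 2) to 447-fold (sgNT 4). Mylpf exceeded Myl2 by 6.43-fold in sgCda 5, where both had few counts, and by up to 1201-fold in sgNT 4, with a ratio of at least 9.79 in sgNT 2, where Myl2 had 0 counts (taken as 3). Myl1 exceeded Myl3 in 9 of 10 tumors, the exception being sgCda 5 with 2 against 5 counts (ratio 0.394, 95% exact interval 0.0375 to 2.41). For Tnnt3 against Tnnt1 the order turned. The ratio was 1.66 (0.954 to 2.91), 0.288 (0.0978 to 0.706), 43.4, 170.3 and 2.86 in sgNT 1 to 5, and 142, 49.9, 238, 4.12 and 0.440 (0.144 to 1.15) in sgCda 1 to 5. The slow gene was thus the higher one in sgNT 2, beyond counting error, and in sgCda 5, within it. Myh4 exceeded Myh7 beyond counting error in 8 tumors, with Myh7 at 2 to 4 counts in each. In sgCda 5 both had 1 count (ratio per kilobase 1.43, 0.0182 to 112.4), and sgNT 2 had 0 counts of either. For Tnnc2 and Tnnc1 no ratio could be read at this depth.

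Genes of the Z-disc and titin showed the same tumors at lower levels. Actn2, an alpha-actinin that crosslinks actin at the Z-disc (chr13:12269426-12340760), was at 0.270, 0.379, 1.24, 1.38 and 0.427 CPM in sgNT 1 to 5. In sgCda 1 to 5 it was at 4.11, 1.14, 6.66, 0.779 and 0.253 CPM. Its sgCda 1 and 3 values lay above all sgNT values, those of sgCda 2 and 4 lay among them, and that of sgCda 5 lay just below the lowest. Actn3, the alpha-actinin of fast fibres, had a mean of 18.4 CPM (0.190 to 93.5). Ttn, the molecular spring titin, had a mean of 12.4 CPM (0.823 to 51.1), and Ldb3, a Z-disc scaffold, 5.93 CPM (1.33 to 24.2). Myoz1 (mean 6.94 CPM, up to 36.4), the titin cap gene Tcap (5.40, up to 26.3) and the actin-binding Xirp2 (4.66, up to 20.6) fell to 8 counts or fewer in at least 1 tumor.

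Of the genes of calcium handling, Pvalb was highest. It encodes parvalbumin, a soluble calcium buffer of fast fibres. Pvalb was at 1.21, 0.0316, 38.6, 81.4 and 0.503 CPM in sgNT 1 to 5 and at 56.1, 50.5, 342, 4.46 and 0 CPM in sgCda 1 to 5. The same 5 tumors were high, and sgNT 2 and sgCda 5 had 1 and 0 counts. Atp2a1, the calcium pump of fast fibres, had a mean of 24.5 CPM (0.405 to 112), and Casq1, which stores calcium in the reticulum, 8.07 CPM (0.222 to 44.7). The release channel Ryr1 (5.29 CPM, 1.36 to 17.3) and its voltage sensor Cacna1s (4.44 CPM, 1.39 to 11.7) had narrower ranges and stayed at 43 counts or more in every tumor. Of the exonic bases of Atp2a1, 21.9% overlap Rabep2 on the opposite strand.

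Of the genes of metabolism other than Eno3, Ckm, the muscle creatine kinase that regenerates ATP, had a mean of 35.9 CPM (0.0949 to 196). Pygm, the muscle glycogen phosphorylase, was at 10.8 CPM (0.979 to 54.6), Mb, the oxygen store myoglobin, at 5.36 CPM (0.0337 to 21.5), and Ampd1, an AMP deaminase, at 3.95 CPM (0 to 23.6). Trim63, an E3 ligase of muscle atrophy and the only member for protein degradation, was at 0.705 CPM (0 to 3.22).

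Relative to Acta1, members differed in how steady they were across the tumors with at least 2000 Acta1 counts. Per 100 Acta1 counts, Ckm varied little, at 33.2 in sgNT 3, 32.5 in sgNT 4, 31.5 in sgCda 1, 32.3 in sgCda 2 and 33.6 in sgCda 3. Myl1 ranged over 35.2 to 42.1 and Mylpf over 39.3 to 55.3 in these 5 tumors, both lowest in sgNT 3 and with intervals there that did not reach those of the highest tumor. Mb and Atp2a1 varied more. Mb was at 12.2 in sgCda 1 (95% exact interval 11.2 to 13.2) and at 2.44 to 5.01 in the other 4, and Atp2a1 at 37.5 in sgCda 1 (35.6 to 39.5) and at 18.2 to 24.4 in the other 4. The tumor with more Myh1 and Myh2 thus also had more myoglobin and more calcium pump RNA per actin RNA. The intervals cover counting error within a library, and the tumor was singled out after its values were seen.

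In sgCda 4, with 113 Acta1 counts, other members were high against Acta1. Myh4 was at 197 per 100 Acta1 counts (157 to 250), against 35.9 to 64.8 in the 5 tumors above, and Ttn at 206 (164 to 260.5), against 8.75 to 18.9. Ckm was at 70.8 (52.5 to 95.1), Tnnt3 at 118 (90.9 to 153) and Pvalb at 112 (85.8 to 145). Mylpf (58.4, 42.4 to 79.8) and Myl1 (42.5, 29.7 to 60.0) were close to their values elsewhere. This is the tumor with more reads outside genes and more mitochondrial counts, and the part of these in the ratios was not tested. In sgNT 5, with 181 Acta1 counts, Myh4 was at 6.08 and Myh1 at 38.1. A high Ttn value was not particular to sgCda 4. Ttn was at 63.6, 318 and 29.8 per 100 Acta1 counts in sgNT 1, 2 and 5, and at 520 in sgCda 5. The values of sgNT 2 and sgCda 5 rest on 11 and 5 Acta1 counts.

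**Figure D4:**
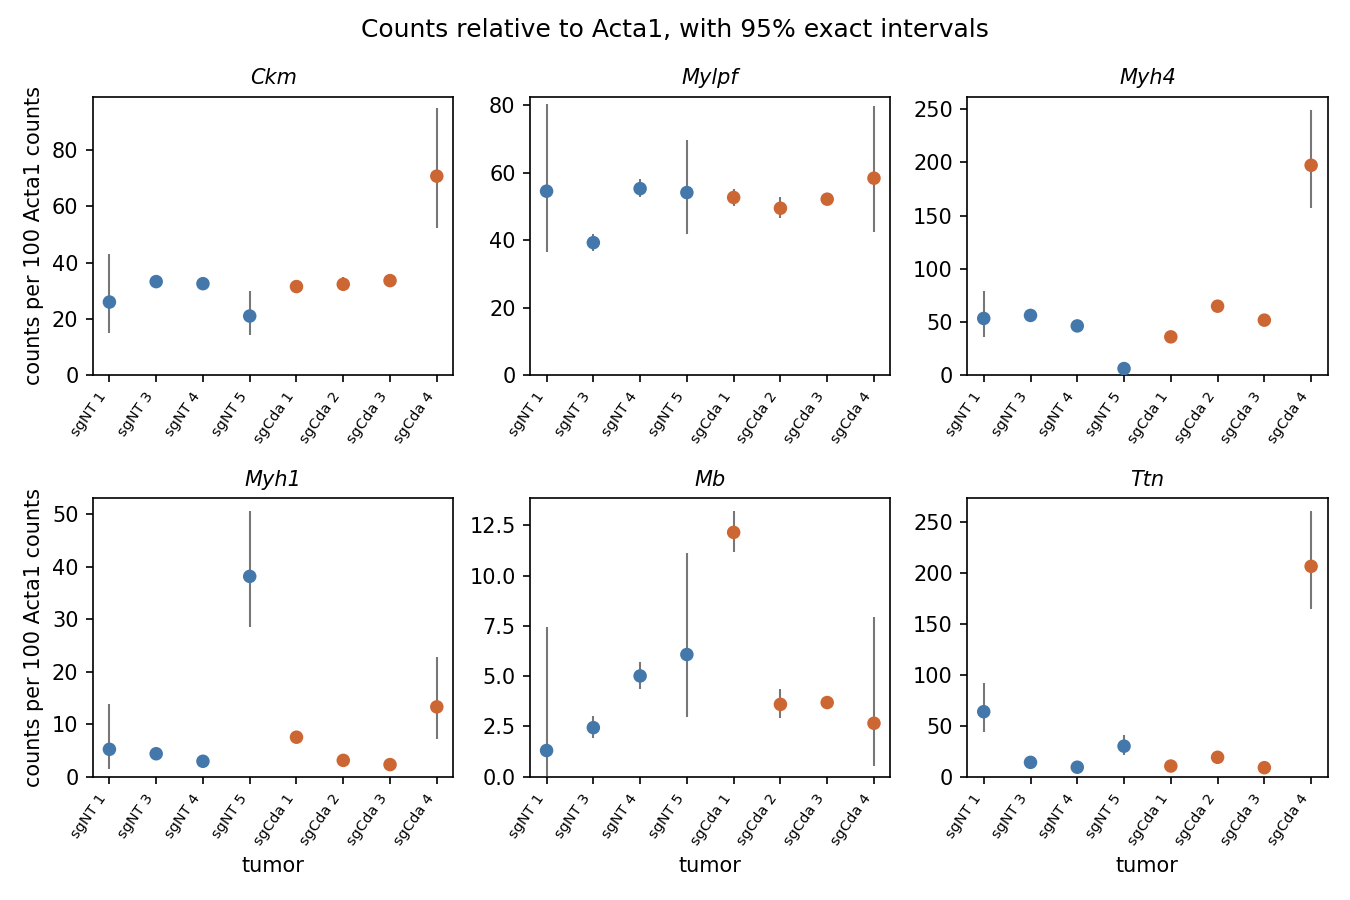
Counts of 6 genes per 100 Acta1 counts in the 8 tumors with at least 50 Acta1 counts (sgNT blue, sgCda orange), with 95% exact intervals for counting error as bars. Ckm lies between 31.5 and 33.6 in sgNT 3, sgNT 4, sgCda 1, sgCda 2 and sgCda 3 and at 70.8 in sgCda 4, where Myh4 (197) and Ttn (206) are also highest, while Mb is highest in sgCda 1 (12.2) and Myh1 in sgNT 5 (38.1).

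Between sgCda and sgNT, none of the members passed the test. Of the 34 genes, 28 passed the filter on low counts, and Myh2, Myh7, Myl2, Myl3, Tnnc2 and Tnnc1 did not. Among the 28 tested, 0 had an adjusted p under 0.05, as was the case for 0% of all genes. At an unadjusted p under 0.05, 1 of 28 was higher in sgCda against 1.54% of all genes, and 0 of 28 were lower against 0.954%. That gene was Actn2, with a log2 fold change of 1.81 (SE 0.80, 95% interval 0.059 to 3.56, edgeR adjusted p = 0.9996). Groups overlapped for all 28, whereas they did not for 0.601% of all genes tested. With a filter of 1 count in any tumor, all 34 members were tested and again 0 were called. The log2 fold changes of the 6 low genes were then 2.14 for Myl3, 1.91 for Myl2, 3.02 for Myh2, 3.37 for Tnnc2, 0.67 for Tnnc1 and 0.38 for Myh7, with an edgeR adjusted p of 0.862 for each of the first 4 and of 0.979 for Tnnc1 and Myh7. In that fit, 4 of 34 (Myl3, Myl2, Actn2 and Myh2) had an unadjusted p under 0.05 and were higher in sgCda, against 2.03% of the 26302 genes tested, and 0 of 34 were lower, against 1.13%.

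The fold changes of the 28 were all positive, from 0.15 (Eno3) to 2.05 (Mb), with a median of 1.63 on the log2 scale against 0.0078 for all genes tested. Their standard errors were wide, with a median of 1.25, and the 95% interval of 27 of the 28 included 0. Acta1 had a log2 fold change of 1.64 (SE 1.59, 95% interval −1.86 to 5.14, adjusted p = 0.9996). The median depended on sgCda 3. Without that tumor it was 0.27, with 27 of 28 positive, 21 below 0.5 and Eno3 at −0.012, and without sgNT 4 it was 2.19. Because the members share an order of tumors, 28 positive values are not 28 separate observations. By fibre kind, the median was 1.66 for the 10 fast genes tested, 1.61 for the 16 shared genes and 0.69 for the 2 slow genes tested, Tnnt1 (0.40, SE 0.37) and Tnni1 (0.98, SE 0.66), and 0.82 for all 6 slow genes with the filter of 1 count in any tumor. By role, it was 1.71 for the 4 thick filament genes tested, 1.30 for the 6 thin filament genes, 1.49 for the 7 Z-disc and titin genes, 1.65 for the 5 calcium genes, 1.68 for the 5 metabolic genes and 1.66 for Trim63.

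**Figure D5:**
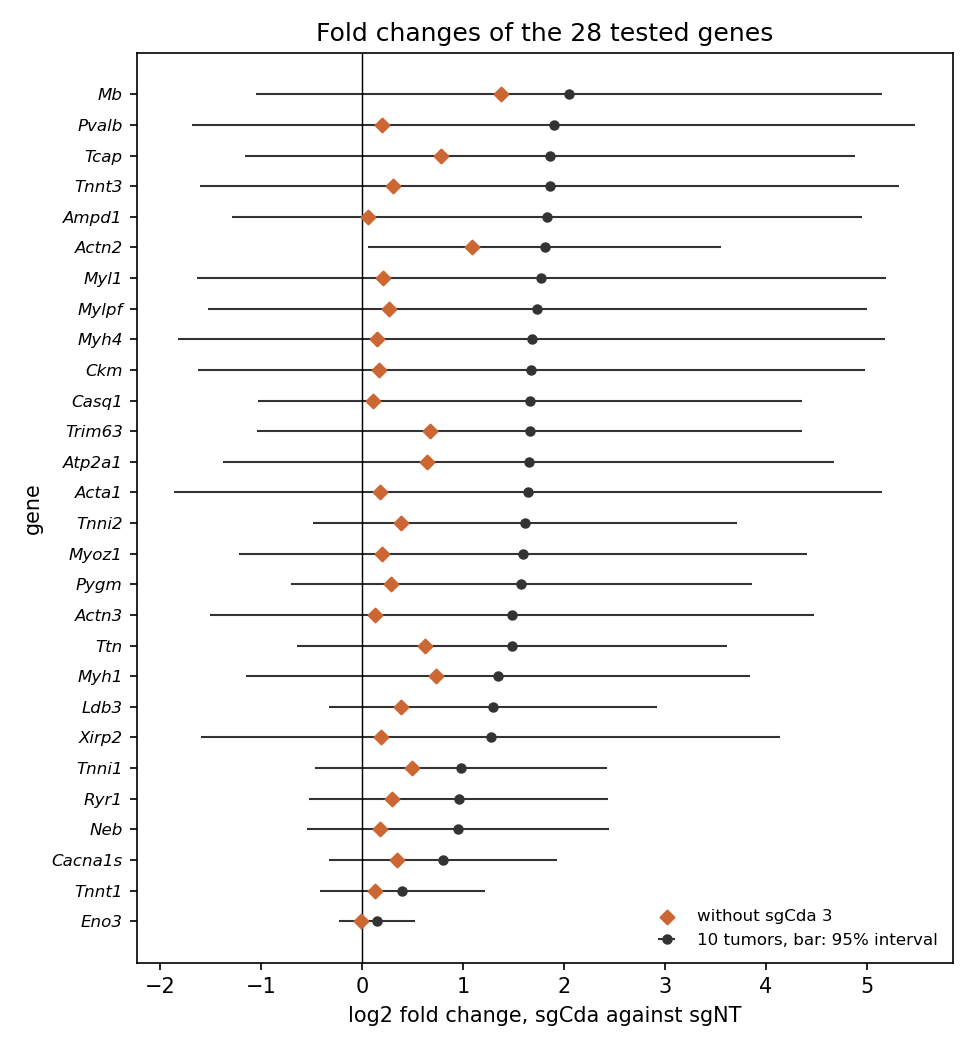
Log2 fold change of sgCda against sgNT for the 28 genes that passed the filter, from all 10 tumors (circles, with 95% intervals as bars) and without sgCda 3 (diamonds). All circles lie above 0 and 27 of the 28 intervals include 0, and without sgCda 3 the median moves from 1.63 to 0.27.

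Skeletal muscle genes outside the 34 had the same tumors high. In a list of 40 other muscle genes, 27 were tested, 0 were called and the median log2 fold change was 1.52, or 0.36 without sgCda 3. Of 36 with a mean of at least 10 counts, 34 were highest in sgCda 3 and 29 had the same 5 highest tumors as most members. The leading gene of the list, Des, which encodes the intermediate filament desmin, ranged from 0.695 to 64.8 CPM. Of 14 genes of myogenic and embryonic muscle, 5 were tested and 0 called (median 0.50), and their leading gene Myh8 ranged from 1.60 to 4.89 CPM. Their summed level was 10.7 CPM in sgNT 3, 10.3 in sgCda 2 and 18.0 in sgCda 3, and 4.55 to 7.16 CPM in the other 7, which include the muscle-high tumors sgNT 4 and sgCda 1. The myogenic factor gene Myog and the embryonic heavy chain Myh3, chosen after their values were seen, showed this at the level of counts. Myog had 35, 17 and 69 counts in sgNT 3, sgCda 2 and sgCda 3, but 3 in sgNT 4 and 0 in sgCda 1. Myh3 had 26, 23 and 38 counts in the former 3 tumors, and 3 and 4 in the latter. Myf6, another myogenic factor gene of the list, did not show this split. It had 23, 28 and 166 counts in sgNT 3, sgCda 2 and sgCda 3, and 29 and 19 in sgNT 4 and sgCda 1.

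Markers of other tissues that the piece could hold were not called in any list. Of 10 cardiac genes, 3 were tested (median 0.46). Of the 10, Myh6, Myl7 and Nppa had 0 to 2 counts in every tumor, while the leading cardiac gene Tnni3 was at 2.10 to 10.3 CPM. Actc1 had 207 counts in sgCda 3 and 0 to 31 elsewhere, and 2 of the 10 genes, Actc1 and Tnnt2, were highest in sgCda 3. The summed cardiac level was 16.3 CPM in sgCda 3, 15.1 CPM in sgCda 4 and 6.66 to 8.80 CPM in the other tumors. Its part in the muscle values was not tested. The 9 smooth muscle genes had a median of −0.14 (leading gene Mylk, 95.2 to 230.4 CPM), 9 of 10 adipocyte genes 0.58 (Lpl, 48.2 to 245 CPM) and 3 of 10 keratinocyte genes −0.19 (Krt10, 3.27 to 14.0 CPM). The median was −0.0016 for 9 of 10 nerve and Schwann cell genes (Pmp22, 55.5 to 81.3 CPM), −0.24 for 8 endothelial genes (Pecam1, 25.8 to 52.8 CPM) and −0.011 for 7 leukocyte genes (Csf1r, 305 to 438 CPM). The summed adipocyte level was 1039.9 CPM in sgCda 2 and 105 to 309 CPM in the other 9 tumors, so it was not highest in sgCda 3, and its part in the muscle values was not tested. The summed leukocyte level was highest in sgCda 3, at 1760.0 CPM against 990.3 to 1559.8 CPM in the other 9 tumors, with 5 of its 7 genes highest there, and its part in the muscle values was not tested. The summed keratinocyte level was 38.6 CPM in sgNT 4 and 7.13 to 12.8 CPM elsewhere. Panc02 cells without host tissue were not analysed here, so the source of the muscle RNA was not tested.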

How the data were processed

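RNA-seq was measured in 5 sgNT and 5 sgCda tumors, grouped and numbered by their titles. Per the study's methods, polyadenylated RNA was made into stranded libraries, the first 50 bases were read, and reads were mapped to GRCm38 (mm10) with TopHat and Bowtie. The deposited values are raw gene counts that the authors made with HTSeq under Ensembl identifiers, with no normalization. The strand setting and annotation release were not given in the sources used here. HTSeq leaves out reads that fit several places or genes, so counts of paralogs and overlapping genes are uncertain. The table held 37417 genes and 5 summary rows, which were dropped. Reads outside annotated genes (10.3 to 18.4%) were 1 of these. A total of 32608 identifiers had a symbol in the name table.

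From these counts, genes were filtered with filterByExpr (minimum count 10, minimum total 15), libraries scaled with TMM factors, and the groups compared with the quasi-likelihood test of edgeR (edgeR 4.0.16, R 4.3.3), without covariates. The Benjamini-Hochberg adjustment ran over the 15299 genes tested. CPM used TMM-scaled library sizes. Exonic lengths, overlaps and 50-base windows came from GENCODE vM21 of the same build. Intervals are 95% Wilson or exact intervals and, like the floor of 3 counts, cover counting error only. The edgeR fit was tested on simulated data.

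The members and lists were chosen with earlier results of these data known. Values per tumor are given for the 6 fast and slow pairs, Myh1, Myh2, the 5 members of highest mean CPM, members with an unadjusted p under 0.05, and members whose highest tumor is not the shared one, and other members by mean and range. From other lists the gene of highest mean CPM is named. No test between groups was made on sums, ratios or lists, and Dixon's test within each group served only to flag single tumors. Alternatives were DESeq2 size factors and Wald test (DESeq2 1.42.0), limma-voom (limma 3.58.1), library totals, scaling without the members, keeping genes with 1 count in any tumor, a replicate block, other ratio summaries and lengths, and leaving out each tumor. The sum without Eno3 and the ratios without the troponin C pair and without Tnni2 were added after the data were seen. The replicate numbers recur in both groups, but the tumors came from different mice and were not paired in the main analysis. No column belonged to another sample.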

Additional observations from a re-analysis of the deposited data

Results flagged for a closer look

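Among 82 groups of 5 values examined, 7 held a tumor far from the other 4 of its group by Dixon's test. For separate values with a normal distribution, the test flags about 1 in 20, or 4.1 here. The members share an order of tumors and the sums and percentages are not on a log scale, so 4.1 is only a rough guide. The members took 0.347% of assigned counts in sgCda 3, against 0.0201 to 0.0999% in the other sgCda tumors. The list of other muscle genes summed to 479 CPM in the same tumor, against 24.7 to 149 CPM. The slow troponin T gene Tnnt1 had a log2 CPM of 0.87 in sgNT 3, against −0.29 to −0.030 in the other sgNT tumors, and the myogenic and embryonic list summed to 10.7 CPM in sgNT 3, against 4.55 to 5.50 CPM. Myh4 made up 15.5% of the 4 heavy chains in sgCda 5, against 80.0 to 95.5%, on 7 counts. The adipocyte list summed to 1039.9 CPM in sgCda 2, against 105 to 267 CPM, and the keratinocyte list to 38.6 CPM in sgNT 4, against 8.43 to 9.80 CPM.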

How the results depend on the processing

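No gene was called by an adjusted p under any of the 17 alternative settings of the test, and the smallest adjusted p of any member over them was 0.819. The count of genes with an unadjusted p under 0.05 was 382 in the main analysis, 830 of 26302 genes tested with the filter of 1 count in any tumor, and 747 without sgCda 3, and its lowest value was 280. Members at that threshold numbered 1 in the main analysis, 0 to 4 when a tumor was left out (4 without sgNT 4; 0 without sgNT 1, 2 or 5 or sgCda 1 or 3), 0 with limma-voom or the replicate block, and 4 with the filter of 1 count in any tumor. The fits without a tumor other than sgCda 3 are given without their share of all genes. Their member counts are therefore not read as a result about the members. Of 743 recomputed values, 741 kept their direction and call or moved by less than the spread between tumors. The exceptions were the median log2 fold change of the keratinocyte list, which was −1.89 with the filter of 1 count in any tumor, where more of its genes were tested, and Eno3, whose log2 fold change was −0.012 without sgCda 3 (up to 0.27 without the others). The median over members ran from 0.27 without sgCda 3 to 2.19 without sgNT 4. With the replicate number as a replicate block it was 1.65 and no gene was called. The deviations of same-numbered tumors correlated at −0.024, −0.017, 0.33, −0.42 and 0.35. These were not set against tumors of different numbers, so whether same-numbered tumors shared more than a number was not tested. The slow sums rest on 38 to 190 counts, which limits each fast to slow ratio, and 16 members had 3 counts or fewer in at least 1 tumor.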
